A study of Mus musculus with 6 samples.

Results

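Col10a1, Panx3 and Mef2c are 3 genes of cartilage hypertrophy, and they were taken by symbol from the deposited table of gene counts, as 3 of its 23358 entries. RNA had been sequenced from immature mouse chondrocytes, cells of the tibial plateau, the femoral condyles and the femoral head of mice at post-natal day 5, with the strain given as C57BL/6 - mix in every library. The cells were grown as micromasses, dense spots of chondrocytes that deposit cartilage matrix, in medium with insulin-transferrin-selenium, ascorbic acid and β-glycerol phosphate, for both genotypes alike. The groups were Ezh2-deficient cultures on days 3, 7 and 14 of differentiating, titled as conditional knockouts, and wildtype at the same days, with 1 library each and 6 in all. Ezh2 encodes the catalytic subunit of Polycomb repressive complex 2, which methylates histone H3 at silent genes. Their labels name neither the Cre driver nor how many mice or cultures made up a library. The question was how the ratio of Ezh2-deficient over wildtype of each of the 3 genes moved between day 3 and day 14.

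Hypertrophy is the last stage of the growth plate chondrocyte, in which the cell enlarges, stops making collagen II, and lays down a matrix that mineralises and is invaded by bone. Col10a1 encodes the chain of collagen X, a short-chain collagen made almost only by hypertrophic chondrocytes and the usual marker of that stage. Panx3 encodes pannexin 3, a membrane channel of prehypertrophic and hypertrophic chondrocytes and of osteoblasts that passes ATP and calcium. Mef2c encodes a MADS-box transcription factor that drives chondrocyte hypertrophy in mice, is held back by class II histone deacetylases, and acts on Col10a1.

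The region just before the start of a gene is where such factors and the basal machinery can bind, so the windows of the genes are shown here. In the deposited table, on mouse build mm10, Col10a1 lay on chromosome 10 from 34389981 to 34397085, Panx3 on chromosome 9 from 37659902 to 37669222, and Mef2c on chromosome 13 from 83504034 to 83667079. Promoter windows in RefSeq (GRCm38.p6, the same assembly as mm10) matched 2 of the 3 symbols, Col10a1 with 1 window and Mef2c with 3, and the Mef2c window printed is the one at the start the table gives. The 250 bases before the start, on the plus strand, are chr10:34389731-34389980 for Col10a1 and chr13:83503784-83504033 for Mef2c, with a TATA box in capitals.
Col10a1: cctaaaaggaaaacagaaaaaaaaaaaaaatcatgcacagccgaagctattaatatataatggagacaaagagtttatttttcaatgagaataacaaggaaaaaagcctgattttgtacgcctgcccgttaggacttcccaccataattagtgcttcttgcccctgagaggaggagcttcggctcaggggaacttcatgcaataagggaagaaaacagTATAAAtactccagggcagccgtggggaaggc
Mef2c: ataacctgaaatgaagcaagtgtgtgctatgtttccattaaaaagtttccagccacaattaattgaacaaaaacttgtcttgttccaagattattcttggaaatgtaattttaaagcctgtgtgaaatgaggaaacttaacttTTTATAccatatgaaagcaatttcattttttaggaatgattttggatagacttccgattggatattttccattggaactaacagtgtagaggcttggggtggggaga
The Col10a1 window held TATAAA on the gene's strand between bases -32 and -27 from the start. The Mef2c window held the same letters on the opposite strand, printed as TTTATA, between bases -107 and -102. Of 32817 promoter windows of 300 bases, 13.6% held TATAAA on either strand. Neither of the printed windows held the RUNX core TGTGGT (in 16.8% of windows), the AP-1 site TGANTCA (7.81%) or the MEF2 consensus (3.19%) on either strand. These are matches of letters and not measured binding.

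The libraries held between 51985214 and 79323302 counts, and all counts were even, so that a sequenced fragment is taken as 2 counts. Levels are given as RPKM, the authors' reads scaled by gene length and by a library total, which can be compared between genes, or as CPM, counts per 1000000 of a library after edgeR's TMM correction of its size. Ezh2 itself had 14.7, 23.0 and 17.6 CPM in the Ezh2-deficient libraries at days 3, 7 and 14, against 24.7, 40.2 and 27.9 CPM in the wildtype libraries, so every Ezh2-deficient library was below the wildtype library of its day, and Ezh2 transcripts remained in all. Which exons were deleted is not given in the sources used here. The chondrocyte markers (Col2a1, Acan, Sox9, Matn3, Hapln1) were present in every library, with a summed level between 15082 and 95810 CPM in Ezh2-deficient libraries and between 27107 and 99645 CPM in wildtype libraries. Within a day there was 1 library per genotype and therefore no test. Tests across the days used edgeR's quasi-likelihood test on 16280 genes, with p-values adjusted by Benjamini and Hochberg's method, and a gene passed at an adjusted p under 0.05. The p-values measure only the spread between these libraries, which the labels do not describe as separate cultures.

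Among the 3 genes, Col10a1 had the widest difference between the genotypes at days 7 and 14. Its deposited level was 107, 59.2 and 445 RPKM in the Ezh2-deficient libraries at days 3, 7 and 14, and 91.0, 129 and 1601 RPKM in the wildtype libraries. The Ezh2-deficient library was the higher one at day 3 and the lower one at days 7 and 14. At day 14 collagen X mRNA was the entry with rank 88 by RPKM in the Ezh2-deficient library, and with rank 13 in the wildtype library. It took 0.174% of all counts in the Ezh2-deficient library at day 14 (Wilson 95% interval 0.172 to 0.175) and 0.621% in the wildtype library (0.618 to 0.624). These intervals cover counting error only.

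Panx3 showed the same low point at day 7 in both genotypes. It had 65.8, 33.8 and 307 RPKM in Ezh2-deficient libraries at days 3, 7 and 14, against 58.8, 21.8 and 217 RPKM in wildtype libraries. The Ezh2-deficient library was the higher one on all 3 days. Mef2c, the least abundant of the 3 per length, had 10.4, 15.4 and 67.7 RPKM in Ezh2-deficient libraries and 7.76, 18.5 and 46.4 RPKM in wildtype libraries. Its Ezh2-deficient library was higher at days 3 and 14 and lower at day 7. In each of the 6 libraries the order of level was Col10a1, then Panx3, then Mef2c.

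**Figure D1:**
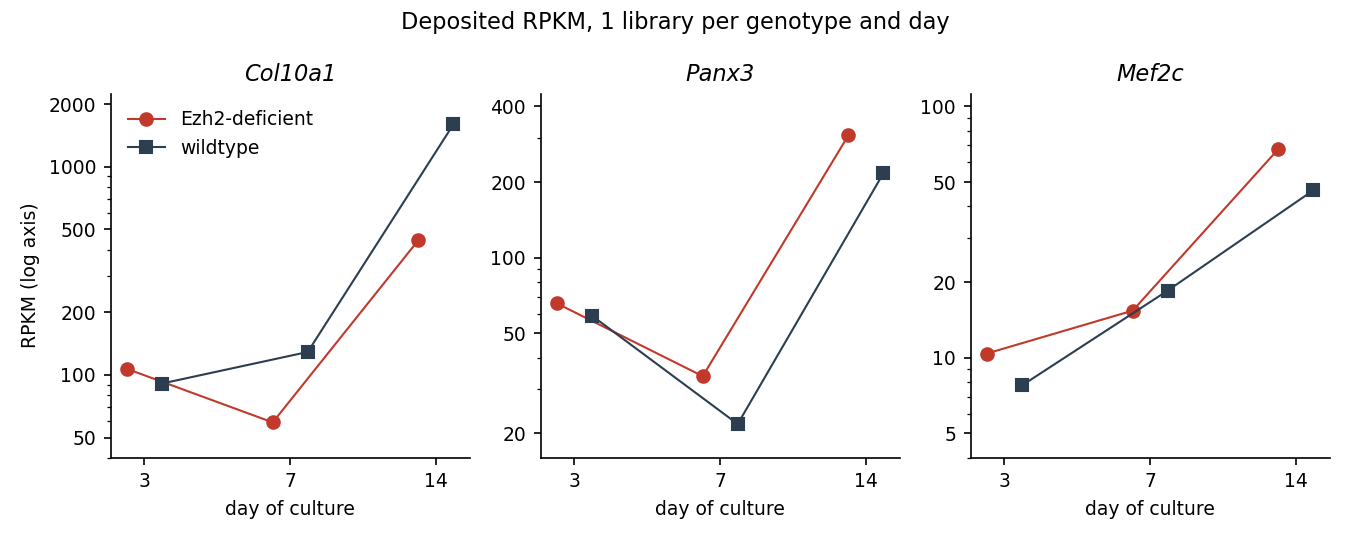
Deposited RPKM (log axis) of Col10a1, Panx3 and Mef2c by day of culture, 1 point per library, circles for Ezh2-deficient and squares for wildtype, joined by lines within a genotype. All 3 genes were highest at day 14 in both genotypes, and the Col10a1 points part at day 14 at 445 RPKM in the Ezh2-deficient library and 1601 RPKM in the wildtype library.

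All 3 genes rose between day 3 and day 14 over both genotypes. In the fit with genotype as a term, the log2 fold change of day 14 over day 3 was 3.01 ± 0.498 for Col10a1 (SE, adjusted p = 0.00616 by edgeR's quasi-likelihood test). For Panx3 it was 2.00 ± 0.144 (adjusted p = 0.000424), and for Mef2c 2.60 ± 0.236 (adjusted p = 0.000871). These 3 calls stand against 45.5% of all genes tested that passed in the same comparison. Within each genotype, where no test could be made, the size of the Col10a1 difference was unlike: day 14 over day 3 was 4.13-fold in the Ezh2-deficient libraries and 16.7-fold in the wildtype libraries. For Panx3 it was 4.63-fold in Ezh2-deficient and 3.49-fold in wildtype libraries, and for Mef2c 6.43-fold in Ezh2-deficient and 5.67-fold in wildtype libraries.

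The steps within this time differed between the genes. From day 3 to day 7 Panx3 fell by 1.39 ± 0.141 on the log2 scale in both genotypes together (SE, adjusted p = 0.00198 by edgeR), while 36.1% of all genes passed in this comparison. Mef2c had a log2 fold change of 0.74 ± 0.225 there and missed the threshold (adjusted p = 0.0515), which it passed by DESeq2 (adjusted p = 0.00624) and limma-voom (adjusted p = 0.0385), with a range of 0.00624 to 0.0548 over 6 alternatives. Col10a1 at day 7 over day 3 stood at 0.479-fold in the Ezh2-deficient libraries and 1.26-fold in the wildtype libraries, and over both genotypes it did not pass (log2 -0.47, adjusted p = 0.462). From day 7 to day 14 all 3 genes rose, by 3.48 ± 0.497 for Col10a1 (adjusted p = 0.0215), 3.39 ± 0.152 for Panx3 (adjusted p = 0.00228) and 1.86 ± 0.231 for Mef2c (adjusted p = 0.0157) on the log2 scale, where 5.66% of all genes passed. Panx3 rose at day 14 over day 7 by nearly the same factor in both genotypes, 10.4-fold in Ezh2-deficient and 10.6-fold in wildtype libraries.

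The genotype ratio of Col10a1 turned over between day 3 and day 14. At day 3 it was 1.20 for Ezh2-deficient over wildtype (95% counting interval 1.17 to 1.23), at day 7 it was 0.456 (0.444 to 0.468), and at day 14 it was 0.296 (0.293 to 0.299). On the log2 scale these ratios are 0.26, -1.13 and -1.76, so the 3 days stood in order. At day 3 the quartiles over all genes tested were -0.15 and 0.19, so the Col10a1 value lay little above the upper one. Its sign at day 3 rests on 1 library per genotype and was not tested. The difference of the log2 ratios, day 14 minus day 3, was -2.02 (counting interval -2.05 to -1.98), and 2.02% of the 16280 genes tested (329) had a smaller value. In the fit of the genotype difference against log2 day, Col10a1 fell by 0.92 ± 0.106 log2 units per doubling of day (SE, adjusted p = 0.044 by edgeR). In that fit 0.614% of all genes passed, 90 with a falling and 10 with a rising ratio, and 1 residual degree of freedom was left. The call was lost with a minimum count of 50 (adjusted p = 0.0876, 14095 genes tested) and with day itself in place of its logarithm (adjusted p = 0.151). Over 8 alternatives with a test the adjusted p ran between 2.31e-09 and 0.151, and 6 of them passed.

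The Panx3 ratio lay above 1 on every day, and higher at days 7 and 14 than at day 3. Ezh2-deficient over wildtype stood at 1.14 at day 3 (95% counting interval 1.10 to 1.18), and at 1.53 (1.45 to 1.62) and 1.51 (1.48 to 1.54) at days 7 and 14, so that days 7 and 14 overlapped within counting error. The log2 ratio at day 14 exceeded that at day 3 by 0.41 (counting interval 0.35 to 0.46), and 83.4% of genes tested had a smaller value. Its change per doubling of day was 0.19 ± 0.0849 log2 units and did not pass (adjusted p = 0.422 by edgeR). For Mef2c the 3 daily ratios were 1.37 (1.30 to 1.45), 0.824 (0.791 to 0.858) and 1.55 (1.51 to 1.59), lowest at day 7. The difference of its log2 ratios, day 14 minus day 3, was 0.18 (counting interval 0.10 to 0.27), with 69.3% of genes tested below it, and its change per doubling of day was 0.06 ± 0.194 (adjusted p = 0.928 by edgeR).

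**Figure D2:**
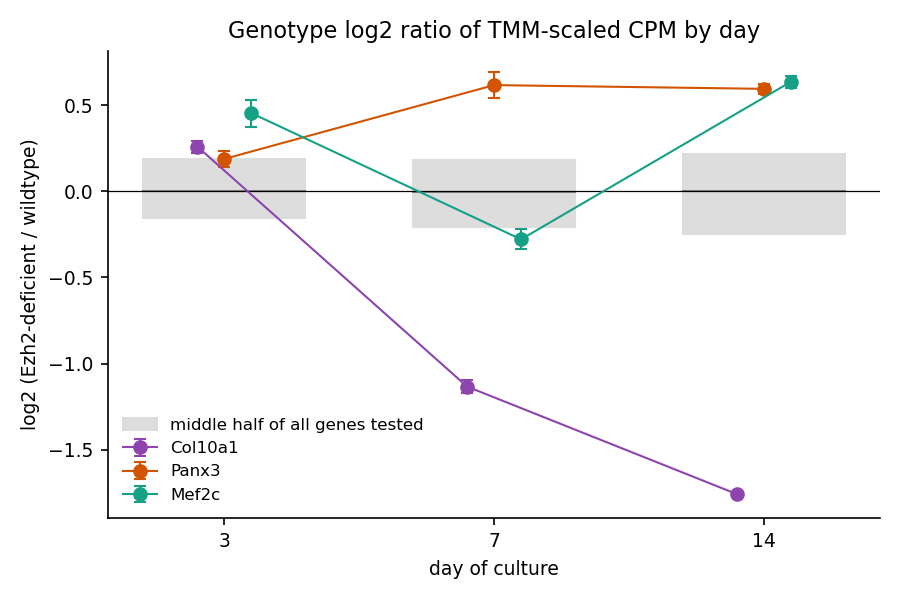
Log2 ratio of Ezh2-deficient over wildtype CPM for Col10a1, Panx3 and Mef2c by day of culture, with bars for the 95% counting interval. Grey boxes span the first to the third quartile of all 16280 genes tested, with their median as a line. Col10a1 goes down through 0.26, -1.13 and -1.76, Panx3 stays above 0 and Mef2c is below 0 at day 7 alone.

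**Figure D3:**
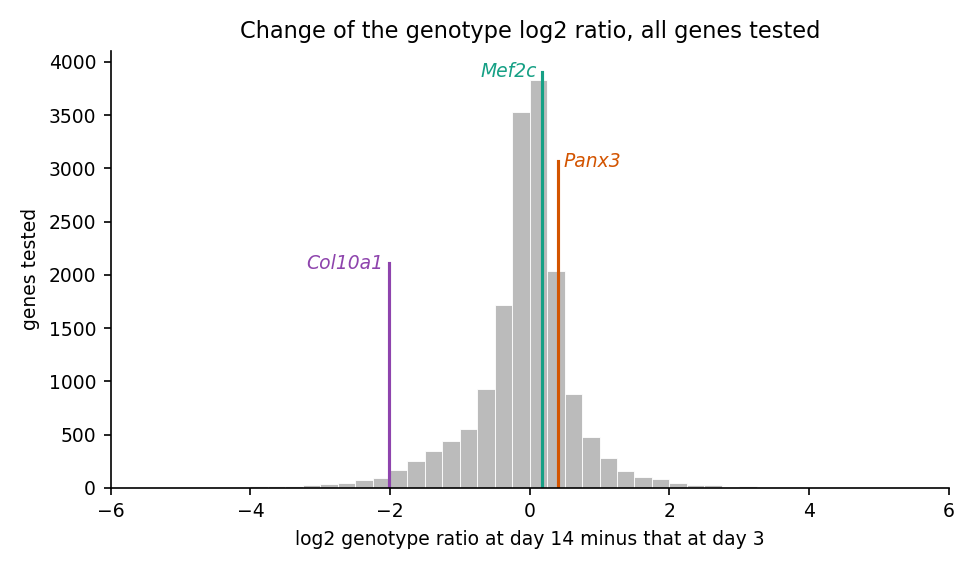
Histogram over the 16280 genes tested of the genotype log2 ratio at day 14 minus that at day 3, in genes per bin, with a vertical line for each of the 3 genes (line heights are arbitrary). Col10a1 at -2.02 lies in the lower tail, Mef2c at 0.18 lies between the quartiles of -0.33 and 0.26, and Panx3 at 0.41 lies above the upper one.

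Taken over the 3 days as one difference, none of the 3 genes passed between the genotypes. The log2 fold change of Ezh2-deficient over wildtype was -0.89 ± 0.386 for Col10a1 (SE, adjusted p = 0.409), 0.47 ± 0.113 for Panx3 (adjusted p = 0.22) and 0.27 ± 0.184 for Mef2c (adjusted p = 0.575), all by edgeR with day as a factor. In this fit 0.0123% of all genes passed (2 of 16280), and 2142 had an unadjusted p under 0.05, Panx3 among them. Panx3 passed by DESeq2 (adjusted p = 0.0197), where the same call was made for 607 genes. Without the day 3 libraries Col10a1 passed at a log2 fold change of -1.45 (adjusted p = 0.0132), Panx3 passed at 0.60 (adjusted p = 0.027), and 863 genes passed in all. Over 11 alternatives the adjusted p ran between 0.0132 and 0.971 for Col10a1, passing in 1, and between 0.0197 and 0.971 for Panx3, passing in 2. By a rule of size within a day, at least 2-fold apart with 1 CPM in the higher library, none of the 3 was called at day 3 (1.90% of all genes tested were), and Col10a1 alone was called, as lower, at day 7 (3.47% of genes) and at day 14 (4.89%).

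The ratio between 2 of the genes within a library does not depend on how libraries are scaled to one another. Col10a1 over Panx3, in RPKM, was 1.62, 1.75 and 1.45 in the Ezh2-deficient libraries at days 3, 7 and 14, and 1.55, 5.89 and 7.39 in the wildtype libraries. The 2 genes thus kept nearly the same proportion on all 3 days in Ezh2-deficient cultures, while collagen X mRNA ran ahead of pannexin 3 mRNA at days 7 and 14 in wildtype cultures. Col10a1 over Mef2c was 10.2, 3.84 and 6.57 in Ezh2-deficient libraries, against 11.7, 6.95 and 34.5 in wildtype libraries. Mef2c over Panx3 was 0.159, 0.456 and 0.220 in Ezh2-deficient libraries and 0.132, 0.848 and 0.214 in wildtype libraries, and the genotypes lay closest at day 14. No test was made on these ratios, with 1 library per group.

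**Figure D4:**
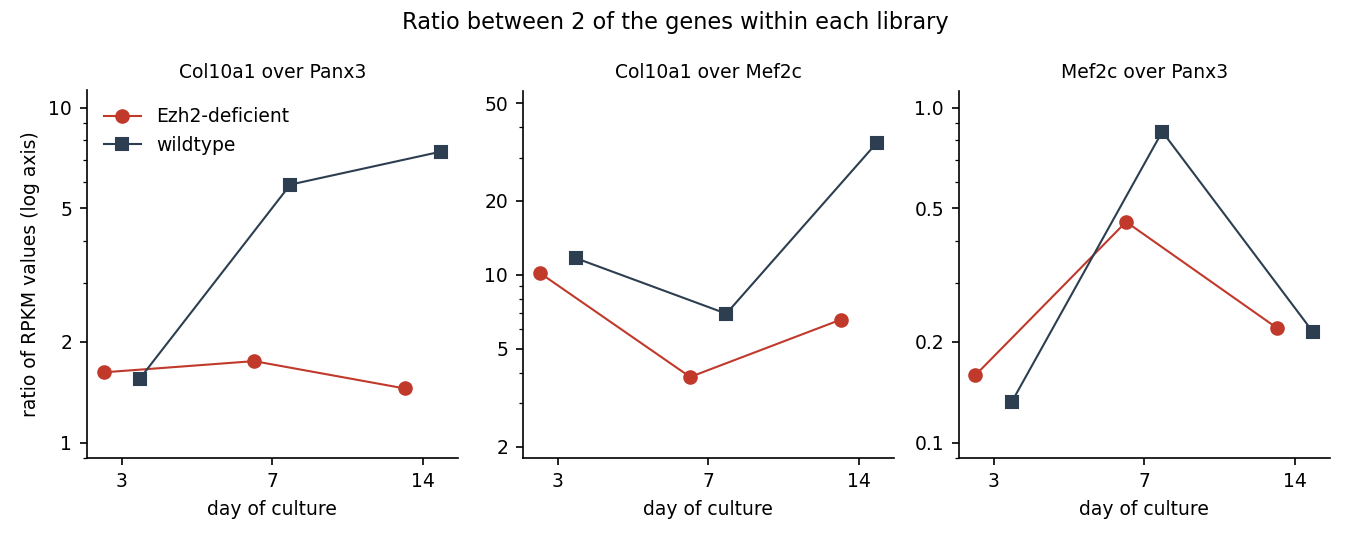
Ratio of the RPKM values of 2 of the 3 genes within each library (log axis) by day of culture, circles for Ezh2-deficient and squares for wildtype. Col10a1 over Panx3 lies between 1.45 and 1.75 on all days in Ezh2-deficient libraries and reaches 7.39 in the wildtype library at day 14.

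Col10a1 lies within Nt5dc1, a gene of the opposite strand, and strandedness of the libraries is not given in the sources used here. In GENCODE vM21 the exons of the 2 genes share 18 of the 3130 exonic bases of Col10a1. Nt5dc1 had 18.0, 14.9 and 17.0 CPM in Ezh2-deficient libraries at days 3, 7 and 14 and 18.0, 15.0 and 18.6 CPM in wildtype libraries, nearly level between genotypes, where Col10a1 had 440, 211 and 1815 CPM in Ezh2-deficient libraries and 368, 462 and 6133 CPM in wildtype libraries.

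The other members of the 3 families were read beside them. Collagen VIII, the other short-chain network collagen, has the chains Col8a1 and Col8a2, and both had a higher level in the Ezh2-deficient library on every day, opposite to Col10a1 at days 7 and 14. Col8a1 had 15.1, 183 and 411 CPM in Ezh2-deficient libraries at days 3, 7 and 14, against 10.4, 74.4 and 178 CPM in wildtype libraries. Col8a2 had 25.4, 189 and 244 CPM in Ezh2-deficient libraries, against 16.7, 117 and 141 CPM in wildtype libraries. Their log2 fold changes between the genotypes over the days, 1.03 ± 0.159 for Col8a1 and 0.70 ± 0.072 for Col8a2, did not pass by edgeR (adjusted p = 0.111 and 0.0691), and both passed by DESeq2. Over both genotypes, both chains rose at day 14 over day 3, by 4.42 and 3.17 on the log2 scale (adjusted p = 0.000185 and 0.000131 by edgeR).

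The other pannexins had few counts. Panx1, the widely expressed one, lay between 4.55 and 6.64 CPM in Ezh2-deficient libraries and between 4.61 and 8.17 CPM in wildtype libraries, and passed in none of the edgeR fits of genotype, day or change with day. At day 14 over day 3 Panx2 fell by 3.55 ± 0.301 on the log2 scale (adjusted p = 0.000724 by edgeR), to 0.438 CPM in the Ezh2-deficient library and 0.912 CPM in the wildtype library. Of the MEF2 factors, Mef2a and Mef2d rose with Mef2c at day 14 over day 3, by 1.45 ± 0.092 and 0.92 ± 0.144 (adjusted p = 0.000307 and 0.0051). Mef2a had 73.5, 100 and 214 CPM in Ezh2-deficient libraries against 63.9, 87.0 and 164 CPM in wildtype libraries, with the Ezh2-deficient library above the wildtype one throughout, unlike Mef2c at day 7. Mef2d had 34.0, 33.1 and 75.2 CPM in Ezh2-deficient libraries and 33.1, 32.3 and 52.7 CPM in wildtype libraries. Mef2b was at 2.99 CPM in the Ezh2-deficient and 1.55 CPM in the wildtype library at day 3, and at later days it rested on 3 to 6 fragments in any library. Of the 7 family genes none passed by edgeR between the genotypes or in the fit of change with day. Between the genotypes 4 had an unadjusted p under 0.05 by edgeR (3 higher, 1 lower), beside 2142 of the 16280 genes tested. In the fit of change with day 1 did, beside 2167 of the genes tested.

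A list of 20 other genes of hypertrophic chondrocytes, all of them tested, gives the setting. At day 14 over day 3, 14 rose and 3 fell, where 45.5% of all genes passed in either direction, and the median log2 fold change was 2.04, against -0.02 over all genes. Between the genotypes over the days none passed by edgeR, 6 higher and 2 lower had an unadjusted p under 0.05, and the median log2 fold change was -0.00, as over all genes. DESeq2 called 5 of the 20 (Alpl, Ibsp and Sp7 higher, Tgm2 and Enpp1 lower) and limma-voom 1 (Ibsp). Over all 16280 genes tested, 2142 had an unadjusted p under 0.05 between the genotypes by edgeR, DESeq2 called 607 and limma-voom 40. Ibsp, a mineral-binding bone matrix protein, had 56.1, 242 and 29943 CPM in Ezh2-deficient libraries at days 3, 7 and 14 and 14.4, 40.4 and 8245 CPM in wildtype libraries, higher in the Ezh2-deficient library on all 3 days, opposite to Col10a1 at days 7 and 14 only (log2 2.13 ± 0.195, adjusted p = 0.0674). Alpl, the phosphatase that frees phosphate for mineral, had 89.5, 242 and 1891 CPM in Ezh2-deficient libraries and 51.0, 82.1 and 1012 CPM in wildtype libraries (log2 1.09 ± 0.166, adjusted p = 0.111). Sp7, a transcription factor needed for osteoblasts, had 27.4, 42.0 and 306 CPM in Ezh2-deficient libraries and 24.3, 22.3 and 172 CPM in wildtype libraries (log2 0.64 ± 0.155, adjusted p = 0.217). Tgm2, a transglutaminase that crosslinks matrix, was lower in every Ezh2-deficient library, at 27.8, 31.0 and 48.6 CPM, against 44.9, 51.0 and 57.2 CPM in wildtype libraries (adjusted p = 0.18).

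In the fit of change with day none of the 20 passed by edgeR, and 3 with a rising and 4 with a falling ratio had an unadjusted p under 0.05, as 2167 of the 16280 genes tested did. DESeq2 called Slc20a1 and Enpp1, both with a falling ratio, beside 342 of all genes tested, and limma-voom called none. Enpp1, which makes pyrophosphate, an inhibitor of mineral, had 39.9, 66.5 and 40.3 CPM in Ezh2-deficient libraries and 50.1, 107 and 123 CPM in wildtype libraries, a change of -0.57 ± 0.10 per doubling of day (adjusted p = 0.0896). Slc20a1, a phosphate transporter, had 120, 89.3 and 56.6 CPM in Ezh2-deficient libraries and 116, 86.5 and 151 CPM in wildtype libraries (adjusted p = 0.251). Vegfa, the signal that draws vessels into hypertrophic cartilage, had 135, 124 and 301 CPM in Ezh2-deficient libraries and 194, 131 and 251 CPM in wildtype libraries, a change of 0.36 ± 0.0679 (adjusted p = 0.105). Runx3, a partner of Runx2 in hypertrophy, had 37.4, 19.4 and 38.1 CPM in Ezh2-deficient libraries and 45.3, 18.8 and 26.4 CPM in wildtype libraries (adjusted p = 0.146). Across the list the median of the log2 ratio at day 14 minus that at day 3 was -0.19, with 13 of 20 below 0, beside a median of -0.01 over all genes tested.

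**Figure D5:**
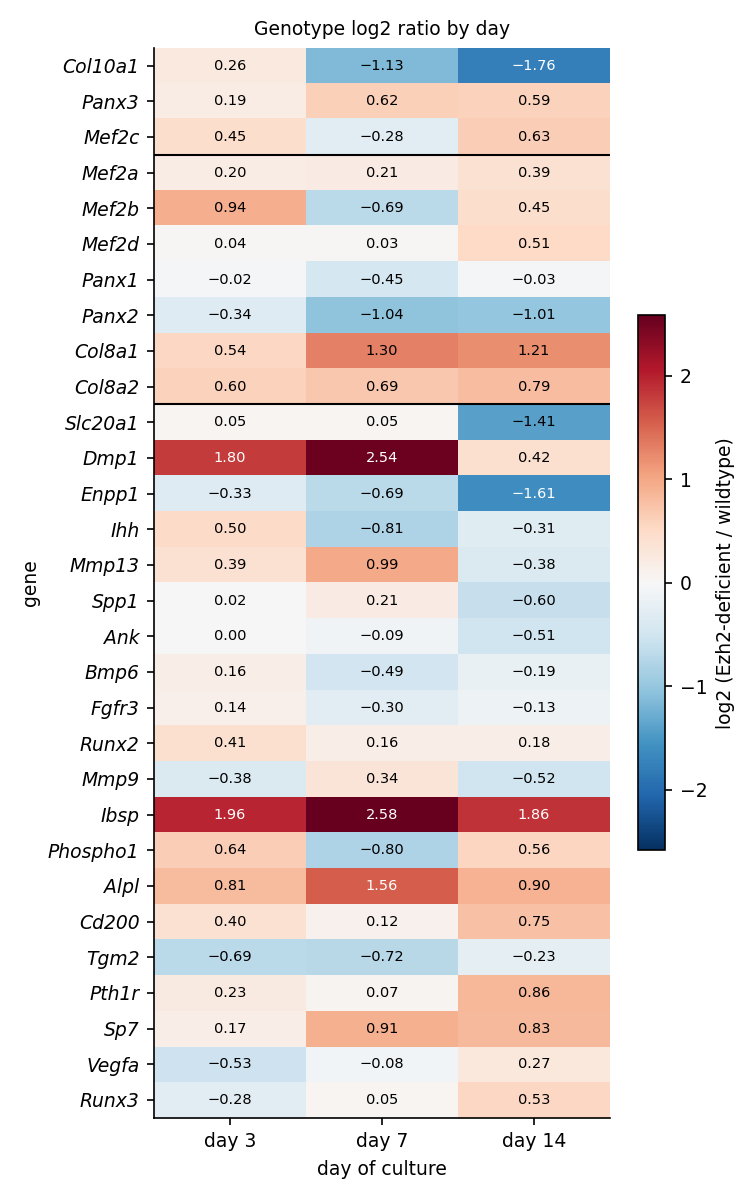
Log2 ratio of Ezh2-deficient over wildtype on each day (columns) for Col10a1, Panx3 and Mef2c at the top, the 7 genes of their families in the middle (Mef2b rests on 3 to 6 fragments a library at days 7 and 14) and 20 other hypertrophic genes below, sorted by the value at day 14 minus that at day 3. Red is higher and blue lower in the Ezh2-deficient library. Col10a1 at -1.76 was the lowest value at day 14 among these genes, followed by Enpp1 at -1.61 and Slc20a1 at -1.41.

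Genes that act on Col10a1 or on MEF2 factors were read as a list of 26, all tested. At day 14 over day 3, 11 rose and 6 fell, again beside the 45.5% of all genes that passed. Runx2, the factor that starts hypertrophy, rose by 1.85 ± 0.101 on the log2 scale (adjusted p = 0.000207 by edgeR) and had 258 CPM in the Ezh2-deficient and 229 CPM in the wildtype library at day 14. Between the genotypes none of the 26 passed by edgeR, and 7 higher and 4 lower had an unadjusted p under 0.05, beside 2142 of the 16280 genes tested. DESeq2 called 2 (Foxa2 and Sox5, lower), beside 607 of all genes tested, and limma-voom none. Sox5, which with Sox6 and Sox9 keeps the earlier cartilage state, had 98.7, 51.3 and 18.2 CPM in Ezh2-deficient libraries and 112, 78.5 and 35.1 CPM in wildtype libraries (log2 -0.58 ± 0.149, adjusted p = 0.241). Foxa2, a forkhead factor of hypertrophic chondrocytes, had 2.15, 2.80 and 2.37 CPM in Ezh2-deficient libraries and 2.46, 9.11 and 7.86 CPM in wildtype libraries. Its log2 ratios of -0.19, -1.69 and -1.72 were below 0 on every day, where that of Col10a1 was above 0 at day 3. Neither the genotype difference of Foxa2 (adjusted p = 0.266) nor its change per doubling of day (-0.71 ± 0.22, adjusted p = 0.265) passed by edgeR. The kinases Sik1 and Sik3, which act on class II histone deacetylases, were higher in every Ezh2-deficient library: Sik1 at 3.47, 5.34 and 8.65 CPM against 2.40, 3.43 and 6.19 CPM in wildtype libraries (adjusted p = 0.245), and Sik3 at 92.4, 66.0 and 72.9 CPM against 82.0, 53.8 and 61.6 CPM in wildtype libraries (adjusted p = 0.261). In the fit of change with day none of the 26 passed by edgeR, DESeq2 or limma-voom. By edgeR 4 had an unadjusted p under 0.05, Smad5 (adjusted p = 0.181) among them, beside 2167 of the 16280 genes tested.

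Of 10 channels and purinergic partners of pannexins, such as the gap junction protein Gja1 and the calcium channels of the endoplasmic reticulum, none passed between the genotypes by edgeR, 3 had an unadjusted p under 0.05, and limma-voom called none. DESeq2 called Itpr1 as higher and Itpr3 as lower. Over all 16280 genes tested, 2142 had an unadjusted p under 0.05 between the genotypes by edgeR, and DESeq2 called 607. Itpr3 had 127, 75.4 and 46.9 CPM in Ezh2-deficient libraries and 169, 121 and 87.6 CPM in wildtype libraries (log2 -0.66 ± 0.105, adjusted p = 0.114). In the fit of change with day none passed by any of the 3 tools. By edgeR 3 had an unadjusted p under 0.05, beside 2167 of the 16280 genes tested. The smallest was that of Gja1 (0.25 ± 0.0742 per doubling, adjusted p = 0.25 by edgeR), followed by Itpr3 and P2rx4.

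Genes of proliferating and resting cartilage, 15 tested, went the other way in time. All 15 fell at day 14 over day 3, with a median log2 fold change of -2.37, where 45.5% of all genes passed and 3645 of 16280 did so as lower. Matn1, which encodes the matrix protein matrilin 1, passed in the fit of change with day, at -1.12 ± 0.119 per doubling (adjusted p = 0.044 by edgeR), with 5034, 1834 and 167 CPM in Ezh2-deficient libraries and 4416, 3280 and 829 CPM in wildtype libraries. In that fit 10 of the 15 had an unadjusted p under 0.05, all with a falling ratio as Col10a1 had. DESeq2 called 5 (Matn1, Matn3, Ucma, Lect1 and Epyc) and limma-voom 2 (Matn1 and Epyc). Over all 16280 genes tested, 100 passed by edgeR and 2167 had an unadjusted p under 0.05. Among all genes tested DESeq2 called 342 and limma-voom 89. The log2 ratio at day 14 was below that at day 3 in 14 of the 15, with a median difference of -0.79. The log2 ratio was below 0 in 11 of the 15 at day 3, in 14 at day 7 and in 14 at day 14, and its median at day 14 was -0.82. Between the genotypes none passed by edgeR, and 9, all lower, had an unadjusted p under 0.05, beside 2142 of the 16280 genes tested. DESeq2 called 5, beside 607 of all genes tested, and limma-voom none. Among the 15 the smallest p-values between the genotypes by edgeR were those of Snorc (listed as 3110079O15Rik), Ucma, Matn3 and Acan.

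Summed marker levels of other cell types differed between genotypes and days in the same libraries. Of the marker genes tested, none passed between the genotypes by edgeR (smallest adjusted p = 0.0559, for Bglap). In the fit of change with day the smooth muscle marker Tagln alone passed, with a falling ratio (-0.54 ± 0.0656, adjusted p = 0.046 by edgeR). The 9 osteoblast markers (Bglap, Bglap2, Col1a1, Ifitm5, Phex, Mepe, Dmp1, Sp7, Smpd3) summed to 2476, 8336 and 65184 CPM in Ezh2-deficient libraries at days 3, 7 and 14 and to 1386, 7397 and 36386 CPM in wildtype libraries. Col1a1 was the most abundant and made up 62973 of the 65184 CPM in the Ezh2-deficient library at day 14, so that sum is mostly 1 gene. Mepe was at 0 in some libraries. The 5 fibroblast markers lay between 3171 and 59370 CPM in Ezh2-deficient and between 2246 and 35195 CPM in wildtype libraries, none at 0. The 5 macrophage markers, none at 0, summed to 93.5, 1281 and 2423 CPM in Ezh2-deficient libraries at days 3, 7 and 14. In wildtype libraries they summed to 130, 1245 and 1702 CPM. At their highest these sums too were mostly 1 gene, Col1a2 at 52318 CPM and Lyz2 at 1803 CPM. Over the days the genotype log2 fold change was -0.40 for Dcn, and between 0.19 and 0.89 for the other fibroblast markers. Among macrophage markers it was -0.37 for Cd68, -0.19 for Emr1 and -0.08 for Ptprc, against 0.12 for Csf1r and 0.07 for Lyz2. The 5 smooth muscle markers lay between 255 and 559 CPM in Ezh2-deficient and between 142 and 431 CPM in wildtype libraries, and the 5 adipocyte markers, Lep at 0 in some, between 71.1 and 315 CPM in Ezh2-deficient and between 12.6 and 157 CPM in wildtype libraries. Skeletal muscle markers summed to at most 13.8 CPM in any library, with Myod1, Myog, Myf5 and Ckm at 0 in some, endothelial markers to at most 6.58 CPM, and B cell markers to at most 1.19 CPM. Mef2c is also made in other cell types, of which muscle, endothelial and B cells are examples and not a full list. Panx3 is also made in osteoblasts. In bulk RNA, fewer cells of a type and less RNA per cell cannot be told apart. Xist had 842, 677 and 513 CPM in Ezh2-deficient libraries and 1065, 1130 and 1223 CPM in wildtype libraries. The summed level of 4 genes of the Y chromosome was 122, 131 and 171 CPM in Ezh2-deficient libraries. In wildtype libraries it was 90.8, 62.5 and 60.6 CPM. Sex-linked transcripts thus differed between the single libraries of the genotypes on every day. Xist passed neither between the genotypes (adjusted p = 0.215) nor for change with day (adjusted p = 0.117) by edgeR. The part of these cell types and of sex in the values of Col10a1, Panx3 and Mef2c was not tested.

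The genes whose pattern was most like each of the 3 were sought among 10384 genes with a mean of at least 5 CPM. By Pearson correlation of log2(CPM + 1) over the 6 libraries, Col10a1 was nearest to Chmp3, at r = 0.988, then Pitpna, Sirt2, Ciao1 and Fbxo25, but 0 of these 5 were among the 5 nearest on the scale of log2(RPKM + 0.1). Panx3 was nearest to Smurf2, Cul3, Sema5a, Klhl2 and Pcsk6 (r of 0.995 for Smurf2), and Mef2c to Usp28, Hspb7, D19Wsu162e, Abi3 and Mamdc2, with 3 of 5 shared on the RPKM scale for each. Among themselves the 3 genes stood lower, at 0.808 for Col10a1 and Panx3, 0.816 for Col10a1 and Mef2c and 0.759 for Mef2c and Panx3, values that share the difference between the days and come with no test. Pearson's r does not weigh the size of a change. Chmp3 lay between 91.3 and 125 CPM, where Col10a1 lay between 211 and 6133 CPM. Smurf2 lay between 69.3 and 90.4 CPM, where Panx3 lay between 63.1 and 1008 CPM. Other near genes changed more, such as Pcsk6 for Panx3 (89.9 to 553 CPM) and Mamdc2 for Mef2c (5 to 118 CPM). By distance over the 3 daily genotype log2 ratios, Col10a1 was nearest to Depdc1a (0.14), Cenpf (0.15), Bub1 (0.26), Nusap1 (0.27) and Mt2 (0.29). Cenpf, a kinetochore protein, had log2 ratios of 0.34, -1.01 and -1.74 at days 3, 7 and 14. Panx3 was nearest to Taf15, Eif3c, Ern1, Dennd4a and Prx, with Taf15 at 0.14, 0.63 and 0.60, and Mef2c to Klf2, Thbs1, Sgms2, Gnai1 and Map2k6, with Klf2 at 0.52, -0.18 and 0.66.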

How the data were processed

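Total RNA of 6 libraries was sequenced, and the deposited table gave, per the file headers, a count and an RPKM value per gene and library, with coordinates and a coding length per gene. The counts were deposited as whole numbers, not normalized, and all were even. The authors' RPKM values followed from those counts, a gene length and a library total, and the counts in the table came to between 80.2% and 82.8% of that total. CASAVA 1.9, TopHat 12.0.6, HTSeq and the build mm10 are named in the submitters' processing notes, and strandedness and the annotation used for counting are not given in the sources used here. Columns were matched to libraries by title.

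A filter on low counts (edgeR's filterByExpr at 10 counts, days as groups) left 16280 of 23358 entries and all 3 genes. Tests used edgeR 4.0.16 in R 4.3.3 (quasi-likelihood F test, two-sided, TMM factors between 0.935 and 1.09, Benjamini-Hochberg adjustment). Genotype and day differences came from 1 model with both terms, in which days or genotypes served as the only repeats (2 residual degrees of freedom). The change with day was the interaction of genotype with log2 day, centred, with 1 residual degree of freedom. Alternatives were DESeq2 1.42.0, limma-voom and limma on log2 RPKM (limma 3.58.1), RLE factors, total counts, no filter, a minimum count of 50, other codings of day, and leaving out a day or a genotype. The scripts were tested on simulated data. Intervals of ratios were exact (Clopper-Pearson, 95%) on fragments of 2 counts, and those of shares of counts were Wilson intervals (95%) on such fragments. Those of differences of log2 ratios used a normal approximation, and all of these intervals cover counting error only. A prior count of 2 entered the rule of size and the lists' daily ratios. The genes named were the 3 genes and their families, the 5 nearest to each by correlation and by ratio distance, and, from each list, genes that passed and up to 4 with the smallest p in the genotype fit and in the fit of change with day, of which not all are printed. The 3 genes and the lists were chosen with earlier results of these data known. Xist and the Y-linked genes were added after values had been seen.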

Additional observations from a re-analysis of the deposited data

Results flagged for a closer look

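The genotype log2 ratio of Col10a1 was 0.26 at day 3, of opposite sign to days 7 and 14, with 1 library per genotype on each day, and this difference between single days was not tested. Its change over the days was tested, and the ratio moved by -0.92 log2 units per doubling of day (adjusted p = 0.044 by edgeR's quasi-likelihood test), with the Ezh2-deficient library higher on 1 of the 3 days. The genotype log2 ratio of Mef2c at day 7 was -0.28, of opposite sign to days 3 and 14, and this too was not tested.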

How the results depend on the processing

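Depth does not limit the 3 genes, which had at least 4338 counts in any library, whereas 1 library per genotype and day does. Mef2c between the genotypes, the change per doubling of day of Panx3 and Mef2c, and the day 14 differences of all 3 genes stayed on their side of the threshold under the alternatives with a test. The Col10a1 change per doubling of day was -0.92 with a minimum count of 50 (no longer past, 14095 genes tested) and -0.17 per day with day itself (no longer past). Without single days, with no test, it ran between -1.14 and -0.62, that of Panx3 between -0.022 and 0.35 and that of Mef2c between -0.60 and 0.91. Between the genotypes, without single days, Col10a1 ran between -1.45 (past the threshold without day 3) and -0.43, Panx3 between 0.39 and 0.60 (past without day 3), and Panx3 was 0.48 by DESeq2 (past). Mef2c at day 7 over day 3 passed with RLE factors (0.75), total counts (0.95), DESeq2 (0.75) and limma-voom (0.72). The cause of these changes was not tested.

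Within Ezh2-deficient libraries alone and wildtype libraries alone, with no test, the log2 fold change of day 14 over day 3 was 2.05 and 4.06 for Col10a1 and 2.21 and 1.80 for Panx3. That of day 7 over day 3 was -1.06 and 0.33 for Col10a1, -1.17 and -1.60 for Panx3 and 0.35 and 1.08 for Mef2c, and that of day 14 over day 7 was 2.33 and 1.42 for Mef2c. With total counts and with deposited RPKM, which scale the libraries otherwise, the genotype log2 ratio at day 14 was -1.84 and -1.85 for Col10a1, 0.51 and 0.50 for Panx3 and 0.55 and 0.54 for Mef2c, and day 14 minus day 3 was -2.10 and -2.08 for Col10a1 and 0.32 and 0.34 for Panx3.

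Genes called between the genotypes, 2 by edgeR, numbered 9 with RLE factors, 0 with total counts, 9 with no filter, 1 with a minimum count of 50, 607 by DESeq2, 40 by limma-voom, 1 with limma on log2(RPKM + 0.1) and 1 on log2(RPKM + 1), and between 0 and 863 without single days. Genes called for change with day, 100 by edgeR, numbered 270 with total counts, 247 with no filter, 0 with a minimum count of 50, 342 by DESeq2 and 0 with day itself. At day 14 over day 7 DESeq2 called 1944, where edgeR called 922. Of the 5 genes nearest by correlation, 0 were shared on the RPKM scale for Col10a1, 3 for Panx3 and 3 for Mef2c, and all 5 nearest by ratio distance were shared with total counts.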
